A study of Homo sapiens with 3 samples.

Results

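Eph receptors are receptor tyrosine kinases that bind ephrins, ligands held on the surface of neighbouring cells. Described here are 9 of them that colon epithelial cells can use, the receptors EPHA1, EPHA2, EPHB2, EPHB3 and EPHB4 and the ligands EFNA1, EFNA4, EFNB1 and EFNB2. Members were taken as every probe set that the platform annotation pairs with exactly 1 of these symbols. This gave 13 probe sets for 8 genes, out of 19775 genes named by a probe set here. EPHB2 had no probe set under this rule and is not analysed here.

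The study put a lentiviral miR-146a expression construct, or the empty vector, into HT29 cells, an established human colorectal adenocarcinoma line, and measured total RNA on Affymetrix expression arrays. There was 1 vector array and there were 2 replicate arrays of the miR-146a cells, all from transduced cells grown in the same serum-containing medium. The labels do not give the promoter of the construct, whether the cells were a clone or a pool, or whether the replicates came from separate cultures, and p-values therefore describe the spread among these arrays alone, which may be technical. The number of arrays limits every value, and the vector has no replicate.

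Ephrins of class A are anchored to the membrane by a lipid and mostly bind EphA receptors, whereas class B ephrins cross the membrane and mostly bind EphB receptors. Contact between cells can signal in both directions, through the receptor's kinase and through the ephrin. In intestinal crypts, EPHB2 and EPHB3 are known targets of Wnt and beta-catenin signalling that keep cells in place along the crypt axis, with ephrin-B ligands on the opposing, more differentiated cells. EPHA2 is known as a gene induced by the Ras and ERK pathway.

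The microRNA that was expressed has 2 mature strands, shown because they define the treatment. Their sequences are from RefSeq (GRCh38.p14, plus strand, chr5:160485372-160485393 for the 5p strand and chr5:160485408-160485429 for the 3p strand), and capitals mark the seed, bases 2 to 8.
hsa-miR-146a-5p: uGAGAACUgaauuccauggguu
hsa-miR-146a-3p: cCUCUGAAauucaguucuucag
The 5p strand is the one usually studied. Seed matches in the members' transcripts were not searched for here. Neither probe set annotated to MIR146A was above the filter on low signal described next, and neither reads the mature microRNA, so they do not check the labels.

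Values are on a log2 scale, as the authors' RMA processing gave them, and each probe set has its own scale, so values are compared between arrays and not between probe sets. A probe set was tested when the mean of its vector value and its miR-146a mean was above 5.13, the median over all probe sets. Of the 13 member probe sets 12 were tested, among 27306 in all. Differences are miR-146a minus vector. Over the tested probe sets the SD of the difference between the 2 miR-146a arrays was 0.13, against 0.22 and 0.21 for replicates 1 and 2 minus the vector. Of the markers listed for cell types, 11 of 12 for colon epithelium were above the filter. So were 3 of 8 for endothelium, 3 of 8 for fibroblasts and 2 of 6 measured for leukocytes, LYZ and CD14. In the vector array the epithelial markers read 5.00 to 14.21 (KRT18 highest) and the leukocyte markers 3.43 to 12.95 (LYZ highest). The endothelial markers read 2.82 to 7.26 and the fibroblast markers 3.50 to 7.33. Summed log2 values of these lists were 118.7 to 119.8 (epithelial), 37.7 to 37.9 (endothelial), 37.6 to 38.2 (fibroblast) and 36.1 to 36.4 (leukocyte) over the 3 arrays. The epithelial sum was highest in the vector array, and 4 of the 11 epithelial markers above the filter were higher and 6 lower in both miR-146a arrays. CDH17, the liver-intestine cadherin, read 5.86 with the vector and 5.39 and 5.24 with miR-146a, 1.46-fold lower (adjusted p = 0.0038 in limma with the prior from unequal replicates, explained below), and the keratin KRT20 and the endothelial marker ESAM differed by -0.24 and -0.33 without passing. The part of these markers in the results below was not tested. For ACTB and GAPDH the platform has end controls, and the differences were -0.32 to -0.18 at the 5′ end and -0.03 to 0.05 at the 3′ end. The part of these end signals in the results below was not tested.

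EPHA2, 1 of the 2 probe sets of EPHB3 and 1 of the 2 of EFNB2 were 1.28-fold to 1.35-fold higher in the miR-146a arrays, and the other probe set was 0.14 higher on the log2 scale for either gene. EFNB1 was 1.15-fold higher, and EPHB4, EFNA1 and EFNA4 lay within 1.1-fold of the vector. EPHA1 gave probe sets that did not go the same way. A change in the number of cells with a transcript and a change in its amount per cell cannot be told apart in such bulk RNA. Of the 12 tested member probe sets, 8 lay above the vector in each of the miR-146a arrays, where 36% of all tested probe sets were. Only 1 was lower in both, where 33.1% of all were. It was 241482_at of EPHA1, whose miR-146a values lay near the filter. The other 3 lay on both sides of the vector or were equal to it in an array. Both arrays lay 0.32 or more above the vector (log2) for 3 of the 12, against 3.54% of all, and 0.32 or more below it for 0, against 3.99%. The count lower in both became 4 without miR-146a replicate 1, and 3 with a further quantile or cyclic loess normalization, where EFNA1 and EFNA4 joined it.

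**Figure D1:**
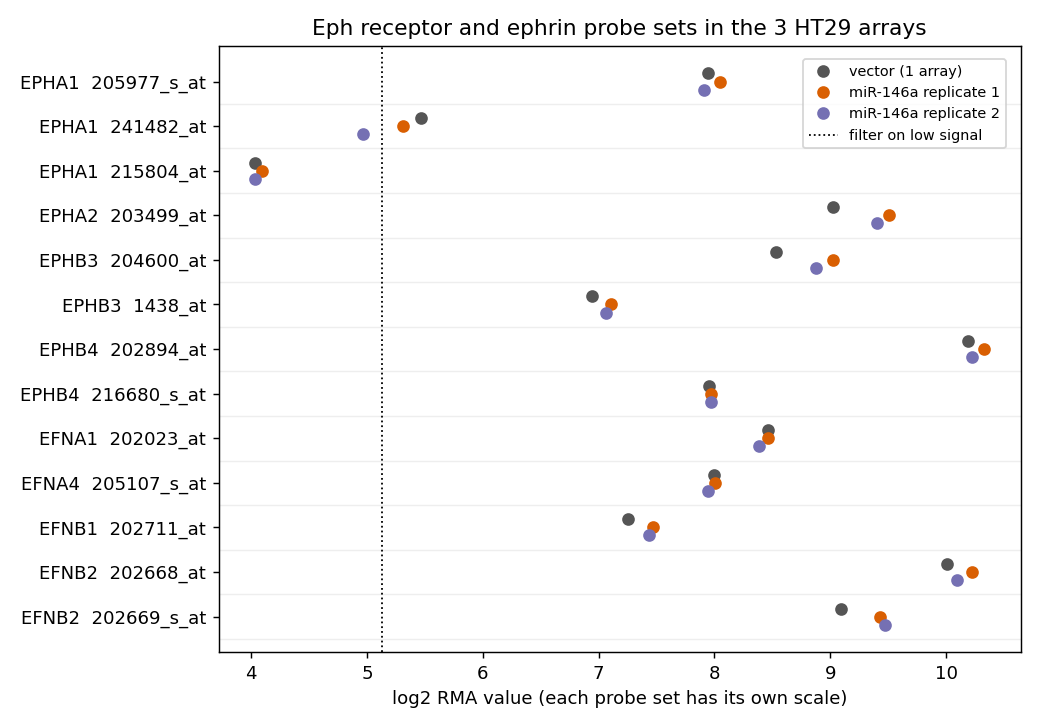
Log2 RMA values of the 13 member probe sets (rows) in the vector array and the 2 miR-146a arrays (points); the dotted line is the filter at 5.13. Both miR-146a points lie to the right of the vector point for 8 probe sets, those of EPHA2, EPHB3, EPHB4, EFNB1 and EFNB2. For 216680_s_at of EPHB4 this is by 0.02 only. The probe set 215804_at of EPHA1 lies below the filter.

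At an adjusted p of 0.05 limma called no member, and neither did it call any of the 27306 probe sets (0% called, smallest adjusted p 0.131). At an unadjusted p under 0.05, 3 member probe sets were higher and 0 lower (EPHA2, EFNB1 and 202669_s_at of EFNB2), where 12.4% of all tested probe sets were higher and 10.9% lower. The fit had 1 residual degree of freedom, and the miR-146a replicates were identical for 12.5% of tested probe sets, including 1 member probe set, which gave such probe sets very small errors and the fit a prior of only 0.56 degrees of freedom. With the prior variance taken from probe sets whose replicates differ (15.1 degrees of freedom), 3 member probe sets passed, all of them higher, where 4.14% of all passed as higher and 4.78% as lower. Below, that second test is named the prior from unequal replicates. It takes the single vector array to vary like the miR-146a arrays.

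Among the receptors, EPHA2 lay furthest from the vector. Its only probe set, 203499_at, read 9.02 with the vector and 9.51 and 9.40 with miR-146a. Both miR-146a values were above the vector, by 0.49 and 0.38, which is more than the 0.11 between the replicates. The mean difference was 0.43 with an SE of 0.10 under the prior from unequal replicates, a 1.35-fold higher value, with an adjusted p of 0.0137 there and 0.212 in limma as specified. Of all tested probe sets, 2.26% were at least as far above the vector in both arrays. The probe set of EPHA2-AS1, the antisense gene, was below the filter and read 4.25, 4.13 and 4.25 in the same order of arrays.

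EPHB3, a crypt receptor for ephrin-B ligands, had a pair of probe sets and both were higher. 204600_at read 8.53 with the vector and 9.02 and 8.88 with miR-146a, which is 0.49 and 0.35 above the vector with 0.14 between the replicates. Its mean difference was 0.42 with an SE of 0.10 (prior from unequal replicates), 1.34-fold, with an adjusted p of 0.0181 there and 0.267 in limma. 1438_at read 6.95 against 7.10 and 7.07. It was also above the vector in both arrays, but its mean difference of 0.14 had an adjusted p of 0.494 under the prior from unequal replicates and 0.231 in limma. The direction was therefore the same in both probe sets and the size differed, 0.42 against 0.14, with 0.28 for their average.

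EPHB4, the receptor best known from veins, whose preferred ligand is EFNB2, lay close to the vector. 202894_at read 10.19 with the vector and 10.33 and 10.23 with miR-146a. 216680_s_at read 7.95, 7.97 and 7.97, the replicates being exactly equal. Both probe sets were above the vector in both arrays, by 0.02 to 0.14, and the mean differences of 0.09 and 0.02 had adjusted p of 0.745 and 0.982 under the prior from unequal replicates. With cyclic loess, 216680_s_at no longer lay above the vector in both arrays (-0.0046 and 0.015). The 95% interval of the 202894_at difference under that prior ran from -0.13 to 0.30, and holds differences of either sign. The difference between EPHB4 and EPHB3 was not tested.

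EPHA1, the first Eph receptor described, had 3 probe sets. 205977_s_at, its probe set with the highest signal, read 7.95 with the vector and 8.04 and 7.91 with miR-146a, 1 above and 1 below the vector. 241482_at read 5.47 against 5.31 and 4.96. It was lower in both arrays, but the replicates differed by 0.35, about as much as the mean difference of -0.33, which had an adjusted p of 0.121 under the prior from unequal replicates and 0.598 in limma. 215804_at was below the filter at 4.03, 4.09 and 4.03. With the 3 averaged, the EPHA1 difference was -0.09, against 0.03 for the probe set of highest signal.

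**Figure D2:**
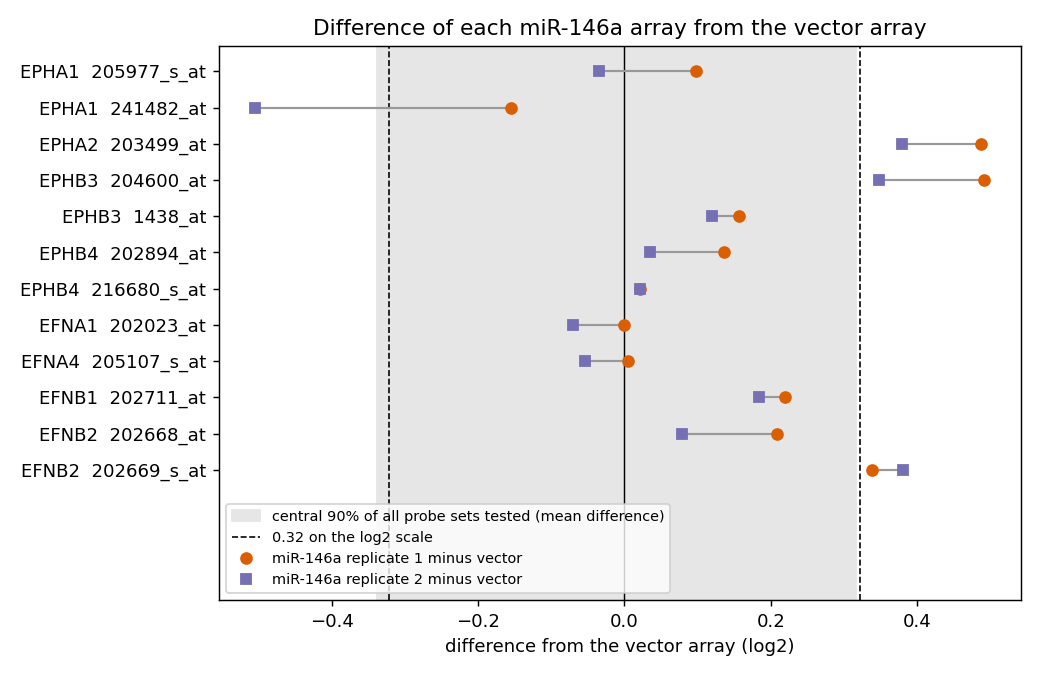
Difference of each miR-146a array from the vector array (log2, x axis) for the 12 tested member probe sets; circles are replicate 1, squares replicate 2, the grey band holds the central 90% of mean differences of all tested probe sets (-0.34 to 0.32) and dashed lines mark 0.32 in either direction. EPHA2, 204600_at of EPHB3 and 202669_s_at of EFNB2 have both points beyond the right dashed line, and 241482_at of EPHA1 has the widest gap between replicates.

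The class B ligands among the members, EFNB1 and EFNB2, were higher in all 3 of their probe sets. EFNB2, a transmembrane ephrin that marks arteries and is also made by intestinal epithelium, read 9.10 with the vector and 9.43 and 9.48 with miR-146a with 202669_s_at. Its replicates differed by 0.04 and lay 0.34 and 0.38 above the vector, a mean difference of 0.36 with an SE of 0.10 (prior from unequal replicates), 1.28-fold, with an adjusted p of 0.0327 there and 0.145 in limma. Its other probe set, 202668_at, read 10.01 against 10.22 and 10.09. That is above the vector in both arrays by 0.21 and 0.08, with a mean of 0.14 and an adjusted p of 0.493 under the prior from unequal replicates, and the average of both probe sets was 0.25.

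EFNB1, the X-linked transmembrane ephrin, read 7.25 with the vector and 7.47 and 7.44 with miR-146a. The miR-146a values lay 0.22 and 0.18 above the vector and 0.04 apart. The mean difference of 0.20 was 1.15-fold, with an adjusted p of 0.259 under the prior from unequal replicates and 0.179 in limma, so it did not pass in either. Its 95% interval under that prior ran from -0.01 to 0.41.

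The class A ligands among the members, EFNA1 and EFNA4, stayed near the vector. Other class A ligands are described further below. EFNA1, a lipid-anchored ligand of EPHA2, read 8.46 with the vector and 8.46 and 8.39 with miR-146a, with replicate 1 exactly equal to the vector. EFNA4, another lipid-anchored ephrin, read 7.997 against 8.002 and 7.944. The mean differences were -0.04 and -0.02, with adjusted p of 0.945 and 0.975 under the prior from unequal replicates. The 95% intervals under it, -0.25 to 0.18 for EFNA1 and -0.24 to 0.19 for EFNA4, hold differences of either sign.

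By class, all 7 tested probe sets of EPHB3, EPHB4, EFNB1 and EFNB2 were higher than the vector in both arrays, with a median difference of 0.14 (0.21 in replicate 1 and 0.12 in replicate 2), where 36% of all tested probe sets were higher. With cyclic loess this held for 6 of the 7, since 216680_s_at of EPHB4 no longer counted. Of the 5 tested probe sets of EPHA1, EPHA2, EFNA1 and EFNA4, 1 was higher and 1 lower in both arrays (33.1% of all were lower), with a median of -0.02. The median over all 27306 probe sets was 0.00. These counts are a description, and the difference between the classes was not tested.

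Over all 37 probe sets of the other 13 genes of the family, 12 were higher and 11 lower in both arrays. Only 9 of the 37 were above the filter. Of these 13 genes, 7 had a probe set above the filter as their probe set of highest signal. Among the 7, 1 was higher and 4 were lower than the vector in both arrays, with a median of -0.20. Of all 12444 genes taken this way, 40.2% were higher and 28.8% lower. One of the 4, EFNB3, was above the filter only through its vector value, so its lower values are no result, and without it 1 of 6 was higher and 3 were lower, with a median of -0.17. No gene of the 7 passed under the prior from unequal replicates, where 4.4% of all genes passed as higher and 2.29% as lower. The 4 lower genes were EPHB6, a receptor whose kinase is inactive, EFNA2, EFNA3 and EFNB3. EPHB6 read 10.14 with the vector and 9.94 and 9.90 with miR-146a, both lower, 1.17-fold on average (adjusted p = 0.202 under the prior from unequal replicates).

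EFNA3 read 7.49 against 7.27 in both arrays, and EFNA2, with 238956_at, read 8.66 against 8.42 and 8.45. The other probe sets of EFNA2 were below the filter and differed by 0.06 and -0.02. EFNB3 read 5.29 against 5.09 in both arrays with 210883_x_at, the miR-146a values lying below the filter, while its other probe set, below the filter in every array, was 0.19 higher. The class B count above covers the members alone and does not extend to EPHB6 or EFNB3.

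EFNA5, a lipid-anchored ligand that can also bind an EphB receptor, was the gene of the 7 that was higher, with probe sets that went opposite ways. 214036_at, its probe set of highest signal, read 7.30 with the vector and 7.47 and 7.61 with miR-146a. 227955_s_at read 6.42 against 6.86 and 6.86, a difference of 0.44 with an adjusted p of 0.0107 under the prior from unequal replicates. 233814_at read 5.56 against 5.17 and 5.37, below the vector in both arrays. EPHA3, EPHA4, EPHA5, EPHA6, EPHA7 and EPHB1 had no probe set above the filter, and EPHA8 and EPHA10 lay on neither side of the vector in both arrays.

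**Figure D3:**
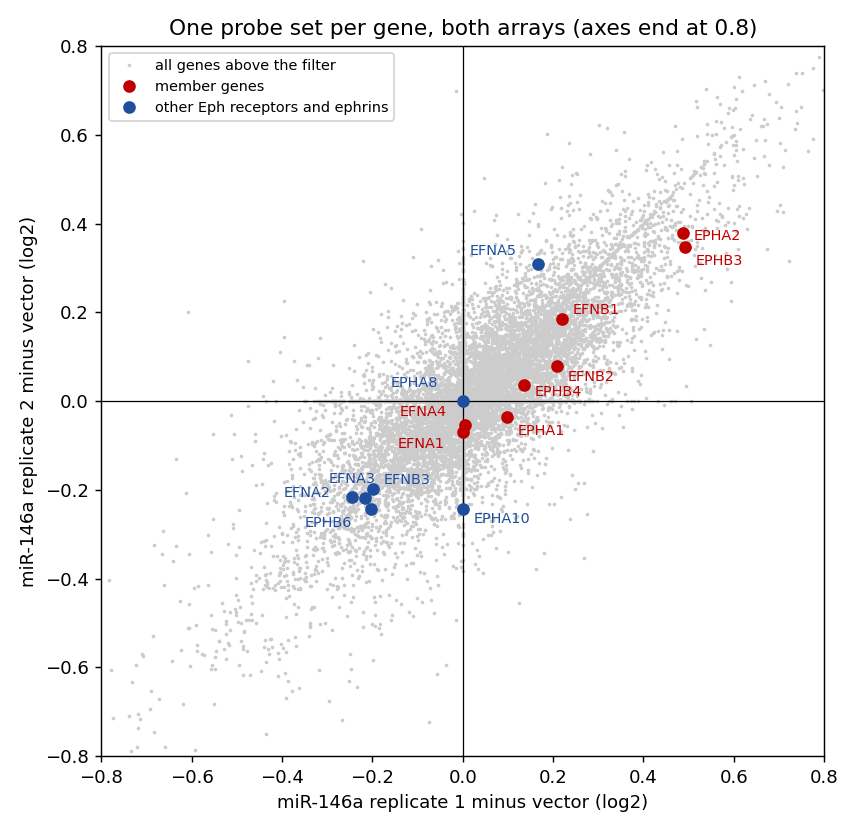
Difference from the vector in replicate 1 (x axis) and replicate 2 (y axis), log2, with 1 probe set per gene, the one of highest signal, for all 12444 genes above the filter (grey), the 8 member genes (red) and 7 other Eph receptors and ephrins (blue); genes beyond 0.8 on either axis are not drawn. EPHA2 and EPHB3 lie together at upper right, EFNB2 (drawn with 202668_at) nearer the centre, and EPHB6, EFNA2, EFNA3 and EFNB3 (above the filter through its vector value alone) together at lower left.

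EPHA2 and EPHB3 are the member genes whose pairs of differences were furthest from 0. The genes nearest to EPHA2 by the distance between pairs of array differences, over 3 arrays, were HOXA2 (distance 0.00087), DUSP14 (0.0061) and MTCL2 (0.0086), and 42 genes lay within 0.05. With so few arrays this likeness describes sizes of difference only.

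Proteins that act with Eph receptors and ephrins did not go the same way. Of 37 listed adaptors, GTPases, kinases, phosphatases and proteases, 35 had a probe set and 32 passed the filter. Of these 32, 9 were higher and 16 lower in both arrays, with a median of -0.03, where 40.2% of all genes were higher and 28.8% lower, with a median of 0.01. Under the prior from unequal replicates 1 passed as higher and 2 as lower, where 4.4% and 2.29% of all genes passed. Counts this small are near those shares and say nothing particular about the list, so the genes named next are given for their own values. PIK3R1, the regulatory subunit of PI 3-kinase, was 1.31-fold higher, reading 8.79 against 9.15 and 9.20 (adjusted p = 0.0213 under that prior), though its other probe sets above the filter differed by -0.03 and 0.00. SHC1, an adaptor that links receptor kinases to Ras, was 1.24-fold higher without passing (adjusted p = 0.0664 under that prior). GRB10, an adaptor that binds activated receptor kinases, read 9.11 against 8.65 and 8.61, 1.39-fold lower (adjusted p = 0.0064). KALRN, the exchange factor kalirin that acts on Rac in EphB signalling, read 8.03 against 7.69 and 7.66, 1.28-fold lower (adjusted p = 0.0321 under the same prior). GRB10 had 3 more probe sets above the filter, between -0.64 and -0.07, and KALRN had 1 more, at -0.07. The median was -0.0032 without miR-146a replicate 1.

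Wnt and crypt genes, the setting in which EPHB3 is known, were mostly higher. The list was chosen with earlier results of these arrays known, so its counts are a description and no independent support. Of 20 listed genes 15 passed the filter, 9 were higher and 2 lower in both arrays, and the median was 0.18 (0.12 without miR-146a replicate 2), where 40.2% of all genes were higher and 28.8% lower. Under the prior from unequal replicates 6 of the 15 passed, all higher, where 4.4% of all genes passed as higher and 2.29% as lower. ZNRF3, a ubiquitin ligase that removes Wnt receptors, read 8.64 against 9.26 in both arrays (1.53-fold, adjusted p = 0.0012). NKD1, a Wnt antagonist, read 7.33 against 7.95 and 7.75 (1.44-fold, adjusted p = 0.0063), but its other 2 probe sets above the filter were at -0.02 and 0.00. MYC read 9.91 against 10.38 and 10.35 (1.37-fold, adjusted p = 0.0087), and NOTUM, a secreted Wnt deacylase, read 7.05 against 7.47 and 7.45 (1.32-fold, adjusted p = 0.0175). All 4 adjusted p-values are limma's with the prior from unequal replicates, and in limma as specified none of the list passed.

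ERK response genes, the setting in which EPHA2 is known, were also mostly higher. Of 20 listed genes 19 passed the filter, 15 were higher and 1 lower in both arrays, with a median of 0.20 (0.17 without miR-146a replicate 1), against the same shares of 40.2% and 28.8% of all genes. Under the prior from unequal replicates 6 passed, all higher, against 4.4% of all genes, and limma as specified called 0 of them. FOSL1, an AP-1 subunit, read 8.60 against 9.20 and 9.22 (1.52-fold, adjusted p = 0.0013 under that prior). EGR1, an immediate early transcription factor, read 9.92 against 10.35 and 10.32 (1.33-fold, adjusted p = 0.015), with its other probe sets higher by 0.62 and 0.68. DUSP4, a phosphatase that acts on ERK, read 8.51 against 8.86 in both arrays (1.27-fold, adjusted p = 0.0371), though its other probe sets ranged from -0.06 to 0.45. MYC and CCND1 belong to both lists, so the lists are not independent. Both patterns were known from earlier results of these arrays, so the counts of this list too are a description only.

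**Figure D4:**
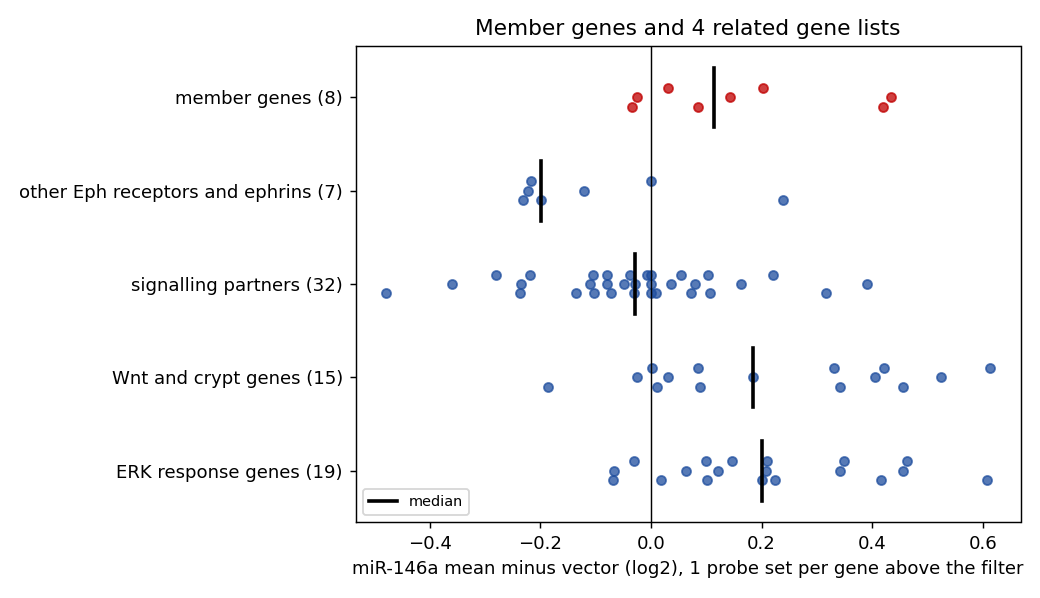
Mean miR-146a minus vector difference (log2, x axis) of each gene above the filter, with 1 probe set per gene, for the 8 member genes and 4 lists (rows, number of genes in brackets); vertical bars are medians. The medians are 0.11 for the member genes, -0.20 for the other family genes (-0.17 without EFNB3), -0.03 for signalling partners, 0.18 for Wnt and crypt genes and 0.20 for ERK response genes.

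The 250 bases before the start sites of EPHA2, EPHB3 and EFNB2, the genes with a probe set past 0.32 in both arrays (for EFNB2 not with cyclic loess, where replicate 1 gave 0.3204 against an exact threshold of 0.3219), are shown with those of EFNA1, which lay near the vector, so that a reader can compare their motifs. They are read 5′ to 3′ on the strand of the gene, from RefSeq (GRCh38.p14). EPHA2 is at chr1:16156070-16156319 (minus strand), EPHB3 at chr3:184561535-184561784 (plus), EFNB2 at chr13:106535663-106535912 (minus) and EFNA1 at chr1:155127626-155127875 (plus). Capitals mark matches, on either strand, to any motif named after the sequences.
EPHA2: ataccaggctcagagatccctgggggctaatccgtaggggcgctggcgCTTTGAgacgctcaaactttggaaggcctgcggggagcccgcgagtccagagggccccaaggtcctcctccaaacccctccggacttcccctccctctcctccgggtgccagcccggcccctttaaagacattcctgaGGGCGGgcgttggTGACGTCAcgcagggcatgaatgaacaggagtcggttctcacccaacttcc
EPHB3: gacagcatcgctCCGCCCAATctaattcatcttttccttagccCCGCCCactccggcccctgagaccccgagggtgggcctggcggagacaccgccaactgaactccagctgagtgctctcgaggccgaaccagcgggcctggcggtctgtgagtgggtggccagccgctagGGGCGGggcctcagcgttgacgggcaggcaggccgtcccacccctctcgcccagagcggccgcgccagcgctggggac
EFNB2: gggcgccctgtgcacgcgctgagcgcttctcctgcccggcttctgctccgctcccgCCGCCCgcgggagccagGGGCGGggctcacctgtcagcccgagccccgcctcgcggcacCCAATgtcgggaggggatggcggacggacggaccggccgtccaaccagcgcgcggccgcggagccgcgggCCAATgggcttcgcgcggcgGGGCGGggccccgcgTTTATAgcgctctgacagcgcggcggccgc
EFNA1: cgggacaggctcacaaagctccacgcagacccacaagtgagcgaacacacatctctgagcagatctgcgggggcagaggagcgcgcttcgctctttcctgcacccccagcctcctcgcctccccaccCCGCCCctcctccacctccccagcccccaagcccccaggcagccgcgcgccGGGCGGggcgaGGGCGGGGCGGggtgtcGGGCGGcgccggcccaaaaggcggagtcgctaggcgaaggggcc

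All 8 member genes had a promoter window in the table, and each was searched on both strands beside all 35114 windows of the same length. The GC box GGGCGG was in 8 of 8 members and in 42.6% of all windows. The CCAAT box, CCAAT, was in 6 of 8 and in 32% of all, and in EPHB3 it shares bases with a GC box, as neighbouring GC boxes do with each other in EFNA1. The TCF/LEF core TCAAAG was in EPHA2 alone among the members and in 11.2% of all windows, the cyclic AMP response element TGACGTCA was in EPHA2 alone and in 1.65% of all, and the TATA box TATAAA was in EFNB2 alone and in 10.7% of all. The AP-1 site TGANTCA (6.57% of all windows) and the interferon response core GAAANNGAA (6.88%) were in 0 of 8. Their GC content ran from 58.4% in EFNA4 to 78.4% in EFNB2, with a median of 58% over all windows. A match is a description of these letters only, and the part of these motifs in the differences was not tested.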

How the data were processed

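Total RNA of transduced HT29 cells was labelled with biotin for Affymetrix arrays, per the labels' protocols. The deposited values are log2 expression values made by the authors with RMA, per the submitters' processing notes (version not stated). Of 54675 probe sets, 62 controls were left out. Of the rest, 41091 were paired with 1 gene by the platform annotation, 1801 with several and 11721 with none here, and only the first kind was named. Each probe set with a mean of both group means above 5.13 was tested with limma 3.58.1 (R 4.3.3; lmFit and eBayes, two-sided, Benjamini-Hochberg over all 27306, threshold 0.05), and again with the prior variance taken from probe sets whose miR-146a values differ. Only the 2 miR-146a arrays inform the spread. Folds are 2 to the power of the log2 difference.

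Lists were described with 1 probe set per gene, the one of highest mean signal. Named are all members, up to 4 genes per list and the 3 genes nearest to EPHA2; LYZ, CD14, CCND1, EPHA2-AS1, MIR146A, KRT18, CDH17, KRT20, ESAM and the end controls of ACTB and GAPDH were chosen after their values were seen. Members, lists, tests and alternatives were chosen with earlier results of these data known. Alternatives were 2 other filters, 2 ways of using a gene's probe sets, 3 priors, 2 further normalizations, 2 other folds and leaving out either miR-146a array. The fit was also run on simulated arrays. Their vector array was given the spread between the miR-146a arrays, so they cannot show whether the real vector array varies that way. Promoter and microRNA sequences are from RefSeq tables (GRCh38.p14). Figures were drawn with matplotlib 3.10.9.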

Additional observations from a re-analysis of the deposited data

How the results depend on the processing

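No adjusted p passed in limma under any filter, probe set rule, normalization, trend or robust prior tried; with the prior from unequal replicates 2436 of all probe sets and 3 of the members' passed. The 8 member probe sets higher in both arrays became 5 genes with 1 probe set per gene or with probe sets averaged, and 8 to 10 when either miR-146a array was left out. The 1 lower in both became 0 with the filter at percentile 70 or under either gene rule, 3 with quantile or cyclic loess normalization, and 1 to 4 with an array left out. The 3 past 0.32 (log2), counted in either direction, became 2 with cyclic loess or with 1 probe set per gene, as EFNB2 left it. They became 1 with probe sets averaged, 0 at 1.5-fold, 5 at 1.1-fold, and 3 to 4 with an array left out. The 5 at 1.1-fold and the 4 without miR-146a replicate 1 include 241482_at of EPHA1, which was lower (-0.16 and -0.50). Averaging turned EPHA1 to -0.089. Filters, priors and the rule of 1 probe set per gene cannot change a gene's difference. Normalization, leaving out an array and, for EPHB3, averaging can. Under these EPHA2 lay at 0.38 to 0.49 and EPHB3 at 0.28 to 0.49. Both passed only with the prior from unequal replicates. Over all limma fits run, that prior included, adjusted p was 0.0137 to 0.276 for EPHA2 and 0.0181 to 0.347 for EPHB3. List medians without the filter were -0.12 (other family genes), -0.0063 (signalling partners) and 0.089 (Wnt and crypt genes), and with probe sets averaged -0.14, -0.076 and 0.15. At percentile 70 that of other family genes was -0.22. With an array left out the medians ran from -0.22 to -0.20, from -0.029 to -0.0032, from 0.12 to 0.20 and, for ERK response genes, from 0.17 to 0.20. No fit could be made with an array left out, since no residual degree of freedom is then left. No paired analysis was possible because there is only 1 vector array. Causes were not tested.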
